A study of Mus musculus with 6 samples.

Results

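The genes described here are 33 genes of hepatic glucose, glycogen and fructose metabolism, taken by symbol from the 55487 genes of the deposited tables. They comprise 7 genes of gluconeogenesis, 10 of glycolysis and glucose transport, 10 of glycogen metabolism, 2 of fructose metabolism and 4 of pyruvate dehydrogenase control. Their mRNA was measured by poly(A) RNA sequencing of frozen liver pieces of 20 mg from 6 male mice aged 8 weeks on standard chow, 3 per group. The WT group was of the inbred substrain BALB_cJ. The SCADD group was of BALB_cBYJ, which lacks working short-chain acyl-CoA dehydrogenase, an enzyme of mitochondrial beta-oxidation that handles short-chain acyl-CoAs. Each genotype came with its own substrain, so the enzyme defect and other variants between the substrains cannot be told apart. Both groups had free access to food and water under a 12/12 h light cycle, and the hour of tissue collection is not stated in the labels.

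The liver keeps blood glucose steady. After a meal it takes up glucose and fructose, stores glucose as glycogen and burns the rest through glycolysis and pyruvate dehydrogenase, and between meals it breaks glycogen down and makes glucose anew from lactate, amino acids and glycerol. Glucagon and insulin set the balance, in part by changing the transcription of the enzymes, and fatty acid oxidation supplies the energy and the acetyl-CoA that gluconeogenesis depends on.

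Gene totals were 23991104 to 27148756 reads in WT and 16948986 to 23912744 reads in SCADD libraries, and the share of unmapped reads was 13.58% to 16.36% in WT and 25.05% to 36.65% in SCADD. Whether the lower depth and mapping of the SCADD libraries had a part in the results was not tested. SCADD replicate 3 had the lowest total and the highest unmapped share. Levels are given as CPM, reads scaled to a common library size with TMM factors, which correct for differences in library composition, always in the order of replicates 1, 2 and 3. Acads, the gene of the deficient enzyme, stood at 185, 166 and 196 CPM in WT livers against 99.3, 104 and 97.0 CPM in SCADD livers (edgeR adjusted p = 0.00407). Every library labelled SCADD was below every library labelled WT. The 8 hepatocyte markers examined, albumin among them, were all expressed and 0 were called by edgeR, DESeq2 or limma-voom, with 0 at an unadjusted p under 0.05. Of 5 pancreatic markers, 4 had no read in any library, and the 5 skeletal muscle markers together reached at most 1.36 CPM.

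Among the 33 genes, 4 fell and 0 rose in SCADD livers, and 29 did not pass the test (edgeR quasi-likelihood test, Benjamini-Hochberg adjusted p under 0.05 over 13498 tested genes). The fallen genes were Ppargc1a, a transcriptional coactivator of gluconeogenesis, to 0.283-fold, Slc37a4, the transporter that brings glucose 6-phosphate into the endoplasmic reticulum, to 0.477-fold, Pfkfb1, the liver enzyme that sets fructose 2,6-bisphosphate, to 0.513-fold, and Gys2, liver glycogen synthase, to 0.585-fold. The 4 genes are 12.1% of the 33, beside 2.80% of all tested genes that were called lower and 4.22% that were called higher. The 33 genes were chosen with earlier results of these data known, so this comparison of shares is a description. All 33 passed the filter on low counts, and 7 had an unadjusted p under 0.05. In bulk tissue fewer cells of a type and less RNA per cell cannot be told apart. Leaving out WT replicate 2 or WT replicate 3 left a count of 1, leaving out SCADD replicate 2 gave 8, and dropping the filter on low counts gave 7, while DESeq2 and limma-voom each called 5 lower and 1 higher, adding Ugp2 and Pdk4. The shares of all tested genes called lower and higher were 2.70% and 3.91% without SCADD replicate 2, 3.05% and 3.85% without a filter, 4.04% and 5.52% with DESeq2, and 2.70% and 4.13% with limma-voom. They were 1.12% and 1.74% without WT replicate 2, and 1.29% and 2.06% without WT replicate 3, where the calls over all genes were 395 and 460 in place of 947.

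The fold changes of the group leaned downward by a small amount. Of the 33 log2 fold changes 24 were negative, and their median was -0.15, while 50.1% of all tested genes were negative with a median of -0.0008. Without SCADD replicate 3 the median was -0.06 and 19 were negative. In 6 of the 33 genes (18.2%) every SCADD library lay below every WT library, beside 13.1% of all tested genes, a share near the background. In 1 gene (3.03%), Pdk4, every SCADD library lay above every WT library, beside 14.9% of all tested genes. In either direction, 21.2% of the 33 did not overlap, below the 28.0% of all tested genes.

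**Figure D1:**
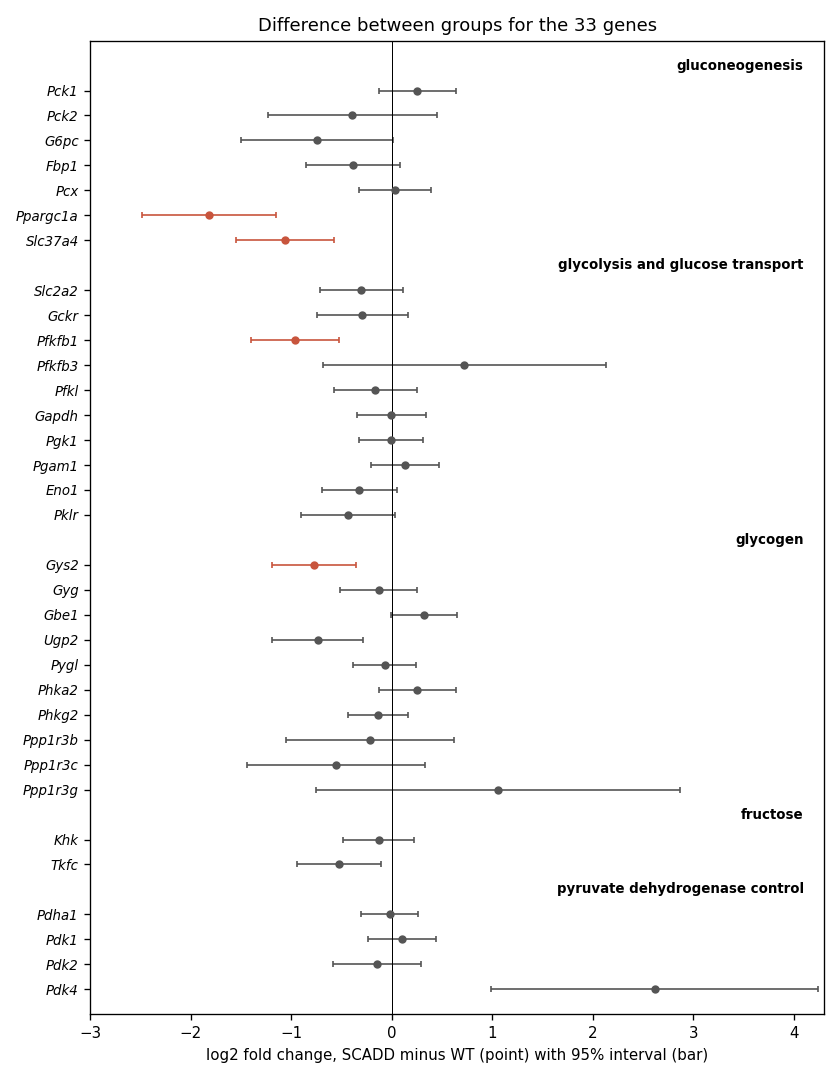
Log2 fold change of SCADD against WT (x axis, points) with its 95% interval (bars) for the 33 genes (y axis), grouped by role, with genes past the adjusted threshold in red. The red genes Ppargc1a, Slc37a4, Pfkfb1 and Gys2 lie to the left of zero, and Pdk4 has the widest offset to the right, at 2.61, without passing.

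The control regions of several of these genes are textbook examples of hormone response. The promoters of Pck1 and G6pc hold elements bound by the cAMP-response factor CREB, through which glucagon acts, and CREB also drives Ppargc1a. They are shown because Ppargc1a and Slc37a4 fell while Pck1 and G6pc did not pass the test, and Pfkfb1 is added as the fallen glycolytic gene. Each sequence holds the 250 bases before a RefSeq start (build GRCm38.p6), 5′ to 3′ on the gene's strand. Capitals mark TGACG or its reverse complement CGTCA in Ppargc1a and Slc37a4, TTACGTCA in Pck1, TTACGTAA and TATAAA in G6pc, and ATTGG, the reverse complement of CCAAT, in Pfkfb1.
Ppargc1a (chr5:51567726-51567975, minus strand): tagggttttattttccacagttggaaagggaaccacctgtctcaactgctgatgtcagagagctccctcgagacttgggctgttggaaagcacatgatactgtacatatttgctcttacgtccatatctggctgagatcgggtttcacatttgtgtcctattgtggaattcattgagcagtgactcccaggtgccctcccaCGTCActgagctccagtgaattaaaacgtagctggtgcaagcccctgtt
Slc37a4 (chr9:44396696-44396945, plus strand): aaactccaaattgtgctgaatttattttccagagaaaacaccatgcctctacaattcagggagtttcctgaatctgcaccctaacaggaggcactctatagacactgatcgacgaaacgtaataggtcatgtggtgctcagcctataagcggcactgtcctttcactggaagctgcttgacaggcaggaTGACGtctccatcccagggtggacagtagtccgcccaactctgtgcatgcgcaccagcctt
Pfkfb1 (chrX:150587195-150587444, plus strand): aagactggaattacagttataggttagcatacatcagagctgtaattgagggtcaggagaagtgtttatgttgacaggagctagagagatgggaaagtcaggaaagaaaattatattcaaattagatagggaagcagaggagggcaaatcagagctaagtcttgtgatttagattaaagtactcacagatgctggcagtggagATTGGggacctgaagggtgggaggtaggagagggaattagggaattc
Pck1 (chr2:173152823-173153072, plus strand): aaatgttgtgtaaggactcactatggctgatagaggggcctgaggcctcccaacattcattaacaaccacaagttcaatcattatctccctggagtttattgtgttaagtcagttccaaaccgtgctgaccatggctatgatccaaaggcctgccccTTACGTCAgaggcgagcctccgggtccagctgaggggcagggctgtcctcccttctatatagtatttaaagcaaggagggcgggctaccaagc
G6pc (chr11:101367466-101367715, plus strand): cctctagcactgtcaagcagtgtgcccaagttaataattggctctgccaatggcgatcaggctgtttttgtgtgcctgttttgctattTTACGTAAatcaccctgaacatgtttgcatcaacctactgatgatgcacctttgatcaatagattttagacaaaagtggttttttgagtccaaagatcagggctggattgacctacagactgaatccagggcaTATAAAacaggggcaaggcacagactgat

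Motifs were searched on both strands. Pck1 held TTACGTCA, with its leftmost base 93 bases before the start, and this octamer occurred in 0.447% of 32851 RefSeq promoter windows of the same length. It contains the reverse complement of TGACG. G6pc held TTACGTAA, found in 0.113% of windows, and TATAAA, found in 12.4%. The shorter core TGACG stood once in the Ppargc1a window and once in the Slc37a4 window shown, and in 17.8% of all windows, so its presence is common. It also stood before a start of Khk, Pfkfb3, Ppp1r3g and Pygl, none of which passed the test. Pfkfb1 held CCAAT, found in 33.8% of windows and before a start of 17 of the 31 genes with an entry, among them G6pc, whose window holds it at positions -214 and -204 from the start, left in lower case. The E-box CACGTG, found in 6.02% of windows, was present before a start of Khk, Pdk2, Pcx, Pfkfb3 and Ppp1r3c, none of which passed the test. The single Ppargc1a start in the table lies 13803 bases from the start of GENCODE's principal transcript, and Slc37a4 and Pfkfb1 have 3 and 4 starts, of which the one nearest to GENCODE's principal transcript is shown. Gys2 and Ppp1r3b had no entry among the RefSeq promoters.

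In gluconeogenesis, 2 of 7 genes fell and 0 rose. Ppargc1a (ENSMUSG00000029167, GRCm38 chromosome 5, 51454250 to 51567726) had 11.4, 24.7 and 15.3 CPM in WT livers and 4.65, 6.18 and 3.60 CPM in SCADD livers. The groups did not overlap, and the highest SCADD library stood well under the lowest WT library. The log2 fold change was -1.82 (SE 0.30, edgeR adjusted p = 0.00744). It was the only one of the 33 genes past a test for a change beyond 1.5-fold (edgeR adjusted p = 0.0335), which 0.600% of all tested genes passed downward and 1.06% upward, and it missed the threshold without SCADD replicate 3 (adjusted p = 0.0516).

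Slc37a4 (ENSMUSG00000032114, chromosome 9, 44396852 to 44402968) works with the glucose-6-phosphatase G6pc to release free glucose from the endoplasmic reticulum. Its levels were 133, 221 and 196 CPM in WT and 92.5, 104 and 65.8 CPM in SCADD, again without overlap. The log2 fold change was -1.07 (SE 0.22, edgeR adjusted p = 0.0161). Its call was lost without WT replicate 2 (0.0871) or WT replicate 3 (0.0622).

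G6pc itself (chromosome 11) had 311, 227 and 126 CPM in WT and 163, 92.1 and 141 CPM in SCADD. WT replicate 3 lay within the SCADD range, and the difference of -0.75 on the log2 scale did not pass (edgeR adjusted p = 0.227, SE 0.33, 95% interval 0.352-fold to 1.01-fold). Without a filter on low counts its adjusted p was 0.00229.

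Pck1, the cytosolic phosphoenolpyruvate carboxykinase that commits oxaloacetate to glucose, had 1363, 1338 and 1263 CPM in WT and 1795, 1619 and 1312 CPM in SCADD. SCADD replicate 3 lay within the WT range, and the 1.19-fold difference did not pass (edgeR adjusted p = 0.437, 95% interval 0.913-fold to 1.56-fold). Fbp1, fructose-1,6-bisphosphatase, had 868, 773 and 757 CPM in WT and 520.5, 827 and 486 CPM in SCADD. SCADD replicates 1 and 3 were below all WT libraries and SCADD replicate 2 was within their range (0.765-fold, adjusted p = 0.319, and 0.0363 without SCADD replicate 2). Pcx, the mitochondrial pyruvate carboxylase, differed little (1.02-fold, 95% interval 0.795-fold to 1.31-fold). Pck2, the mitochondrial form of the carboxykinase, was near the detection limit with 10 reads in its lowest library and 0.472 to 1.45 CPM throughout. So the coactivator and the glucose 6-phosphate transporter fell. The intervals of Pck1, G6pc, Fbp1 and Pcx all held a ratio of 1, though that of G6pc reached only 1.01-fold. Whether the fallen genes differ from these 4 in their response was not tested.

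**Figure D2:**
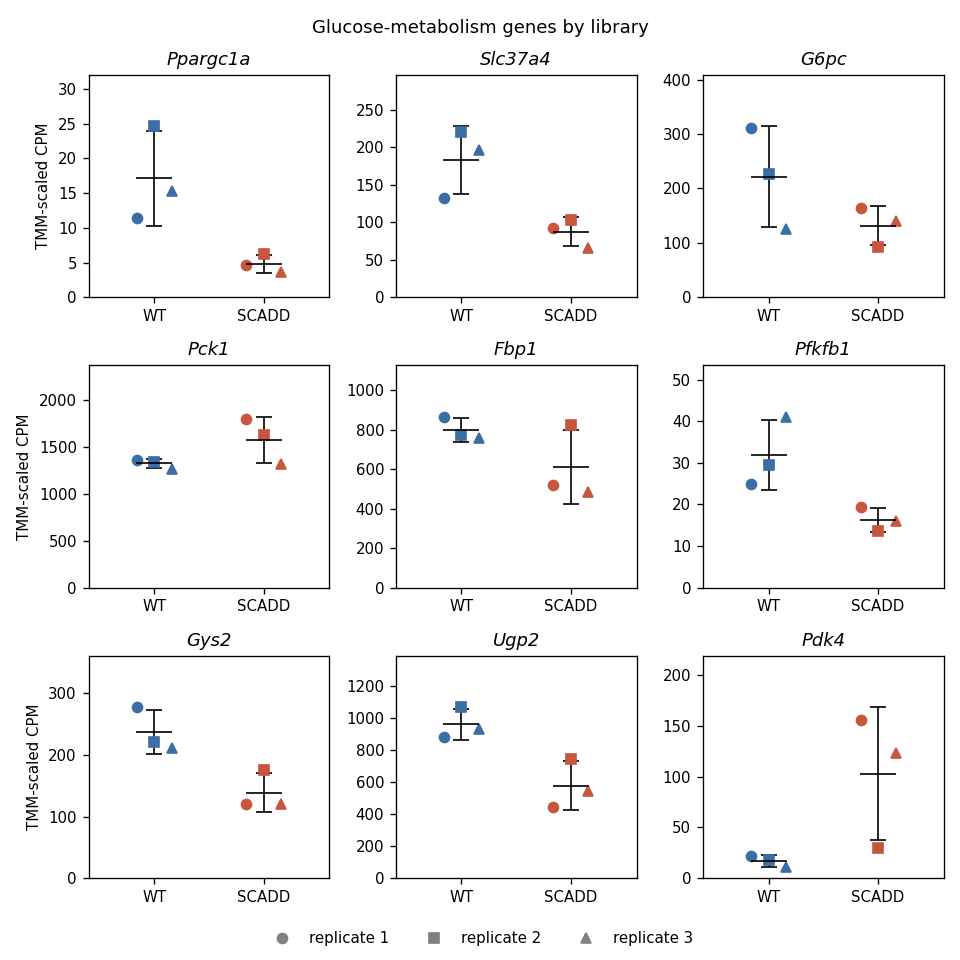
TMM-scaled CPM (y axis, from 0) of 9 genes in each library, with WT in blue and SCADD in red, the replicate number given by the marker shape, and mean and SD of 3 animals as black lines. Ppargc1a, Slc37a4, Pfkfb1, Gys2 and Ugp2 have SCADD points below all WT points, and Pdk4 has 2 SCADD points far above and 1 slightly above the WT points.

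In glycolysis and glucose transport, 1 of 10 genes fell and 0 rose. Pfkfb1 (ENSMUSG00000025271, chromosome X, 150588229 to 150643878) encodes the bifunctional kinase and phosphatase of liver, whose product fructose 2,6-bisphosphate drives glycolysis and restrains gluconeogenesis. It had 24.9, 29.6 and 41.1 CPM in WT and 19.4, 13.6 and 15.9 CPM in SCADD. The groups did not overlap, and the log2 fold change was -0.96 (SE 0.20, edgeR adjusted p = 0.0165). The call was lost without WT replicate 2 (0.0539) or WT replicate 3 (0.0617). Its sister gene Pfkfb3, the inducible form with high kinase activity, ranged from 3.83 to 11.1 CPM in WT and from 7.45 to 23.4 CPM in SCADD, and the wide spread left an interval from 0.622-fold to 4.38-fold.

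Slc2a2, the liver glucose transporter GLUT2, had 130.0, 142 and 157 CPM in WT and 102, 151 and 94.2 CPM in SCADD (0.810-fold, edgeR adjusted p = 0.379). Pklr, the liver pyruvate kinase, had 33.7, 28.9 and 34.2 CPM in WT and 21, 33.1 and 17.3 CPM in SCADD (0.739-fold, adjusted p = 0.255). In both genes SCADD replicates 1 and 3 were below every WT library and SCADD replicate 2 was within the WT range, and Pklr passed without SCADD replicate 2 (adjusted p = 0.0138). Gckr, the nuclear inhibitor protein of glucokinase, overlapped between groups (0.815-fold, adjusted p = 0.444). Eno1, an enolase, had 113 to 122 CPM in WT and 70.6 to 109 CPM in SCADD without overlap but did not pass (adjusted p = 0.292).

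Among the remaining glycolytic genes, 4 differed little between the groups. Gapdh had a mean of 346 ± 40.6 CPM in WT and 345 ± 29.2 CPM in SCADD (SD, n = 3 each). Pgk1, phosphoglycerate kinase, had 220.2 ± 20.4 and 219 ± 18.5 CPM (SD, n = 3 each). The 95% intervals were 0.787-fold to 1.26-fold for Gapdh, 0.796-fold to 1.24-fold for Pgk1, 0.864-fold to 1.39-fold for the mutase Pgam1 and 0.669-fold to 1.19-fold for the phosphofructokinase Pfkl. Gapdh and Pgk1 had no fixed direction: under other settings their log2 fold changes lay between -0.0932 and 0.0868 and between -0.0929 and 0.0503. Gapdh, Pgk1, Pgam1 and Eno1 have near-identical copies elsewhere in the genome, so their unique counts are uncertain. RSEM, which divides shared reads, assigned 3.32 to 3.99 times the unique STAR count to Pgam1, 1.47 to 1.52 times to Pgk1, 1.20 to 1.24 times to Gapdh and 1.05 to 1.10 times to Eno1. With RSEM counts the log2 fold changes of these genes were 0.14, -0.03, 0.01 and -0.30 in the same order, and none passed.

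In glycogen metabolism, 1 of 10 genes fell and 0 rose. Gys2 (ENSMUSG00000030244, chromosome 6, 142422613 to 142473109), the synthase that lengthens glycogen chains, had 278, 221 and 211 CPM in WT and 119.7, 175 and 121 CPM in SCADD. The groups did not overlap, with SCADD replicate 2 the highest of its group, and the log2 fold change was -0.77 (SE 0.19, edgeR adjusted p = 0.0334). Its call was lost without WT replicate 1 (0.0984), 2 (0.0984) or 3 (0.0676), and without SCADD replicate 1 (0.136).

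Ugp2 makes UDP-glucose, the substrate of the synthase, and had 881, 1068 and 931 CPM in WT and 441, 741 and 543 CPM in SCADD. Its groups did not overlap either, yet the 0.599-fold difference just missed the threshold (SE of the log2 value 0.21, edgeR adjusted p = 0.0571). It passed with DESeq2 (0.00465), limma-voom (0.0497) and upper-quartile scaling (0.0443), and without SCADD replicate 2 (0.00905). Gbe1, the branching enzyme, had 27.1 to 31.0 CPM in WT and 30.9 to 43.8 CPM in SCADD and did not pass (1.25-fold, adjusted p = 0.233). Gyg, the glycogenin protein that primes the chain, differed little (0.913-fold, 95% interval 0.701-fold to 1.19-fold).

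On the breakdown side no gene passed. Pygl, liver glycogen phosphorylase, had 147, 169 and 146 CPM in WT and 146, 161 and 132 CPM in SCADD, with overlapping groups (0.951-fold, 95% interval 0.766-fold to 1.18-fold). The phosphorylase kinase subunits Phka2 and Phkg2, which switch phosphorylase on, had intervals from 0.913-fold to 1.55-fold and from 0.741-fold to 1.12-fold. Whether the synthase and the phosphorylase differ in their response was not tested.

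The 3 subunits that target protein phosphatase 1 to glycogen varied widely among the animals of a group. Ppp1r3b ranged from 90.3 to 223 CPM in WT and from 84.7 to 170.0 CPM in SCADD, and Ppp1r3c from 72.9 to 122 CPM and from 33.9 to 99.5 CPM. Ppp1r3g, a subunit known for its rise on fasting, had 2.64, 0.831 and 0.976 CPM in WT and 1.55, 1.42 and 6.76 CPM in SCADD. SCADD replicate 3 stood apart, and the difference of 1.06 on the log2 scale (edgeR adjusted p = 0.476, SE 0.76) became -0.01 without that library. None of the 3 passed the test.

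In fructose metabolism, neither gene passed. Khk, ketohexokinase, which traps fructose in the cell, had 188, 219.8 and 259 CPM in WT and 206, 219 and 184 CPM in SCADD (0.914-fold, edgeR adjusted p = 0.689, 95% interval 0.716-fold to 1.17-fold). Tkfc, the triokinase that phosphorylates glyceraldehyde from fructose, had 100.3, 93.3 and 119.6 CPM in WT and 67.5, 93.9 and 56.5 CPM in SCADD (0.696-fold, adjusted p = 0.129). SCADD replicate 2 again lay within the WT range, and Tkfc passed without it (0.0164) and without a filter (0.0211). Of stranded reads at Tkfc 7.60% were on the opposite strand, against at most 0.667% for any other of the 33 genes, and counting by strand left them out.

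Pyruvate dehydrogenase links glycolysis to acetyl-CoA and is switched off by the kinases Pdk1, Pdk2 and Pdk4. None of the 4 genes of its control passed, while Pdk4 had the largest fold change of the 33. Pdk4, the kinase isoform induced by fasting and by PPAR-alpha, had 21.7, 18.1 and 10.5 CPM in WT and 156, 29.6 and 124 CPM in SCADD. All SCADD libraries were above all WT libraries, with replicate 2 much nearer to WT than the other 2. The log2 fold change was 2.61 (SE 0.66, edgeR adjusted p = 0.0788, 95% interval 1.98-fold to 18.9-fold). It passed with DESeq2 (0.00465), limma-voom (0.0275) and without SCADD replicate 2 (0.00112). Pdk1, Pdk2 and Pdha1, the catalytic subunit that the kinases phosphorylate, had intervals from 0.850-fold to 1.35-fold, 0.665-fold to 1.22-fold and 0.809-fold to 1.20-fold.

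The SCADD animals were not alike in these genes. SCADD replicate 2 was the highest of its group in 23 of the 33 genes (69.7%), beside 37.6% of all tested genes, and SCADD replicate 3 was the lowest in 24 (72.7%), beside 41.0%. In 20 genes both held. Of the 15 clock genes, SCADD replicate 2 was the highest of its group in 10 and the lowest in 2. Of the 10 periportal markers it was the highest in 8 and the lowest in 2. Other lists did not share this: it was the highest in 4 and the lowest in 3 of the 13 genes responsive to fasting and feeding. The counts were 4 and 2 of 8 hepatocyte markers, 3 and 2 of 10 pericentral markers, and 0 and 4 of 6 Kupffer cell markers. The levels of Dbp, a clock output, and Ciart, a clock repressor, were high in SCADD replicate 2, with Dbp at 12.5, 49.6 and 24.5 CPM and Ciart at 0.408, 3.02 and 0.806 CPM in the SCADD livers. In WT, replicate 3 was the highest for both, with Dbp at 15.3, 6.82 and 38.5 CPM and Ciart at 0.181, 0.219 and 1.61 CPM. Igfbp1, which insulin represses, was 14.4, 3.44 and 16.1 CPM in the SCADD livers and 10.7 to 21.6 CPM in WT. These 3 genes were singled out after their values were seen, and other clock genes, such as Nr1d2 at 67.5, 89.2 and 92.1 CPM and Per1 at 9.01, 8.30 and 6.70 CPM in the SCADD livers, did not set that library apart. The part of clock phase or feeding state in the spread was not tested. Of the 15 clock genes 14 were tested, and 1 rose and 0 fell by each of edgeR, DESeq2 and limma-voom. Of the 13 genes responsive to fasting and feeding 12 were tested. By edgeR 1 of them rose (Scd1, stearoyl-CoA desaturase, 8.17-fold, edgeR adjusted p = 0.0475) and 0 fell. DESeq2 called 2 of them higher and limma-voom 1, each with 0 lower.

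**Figure D3:**
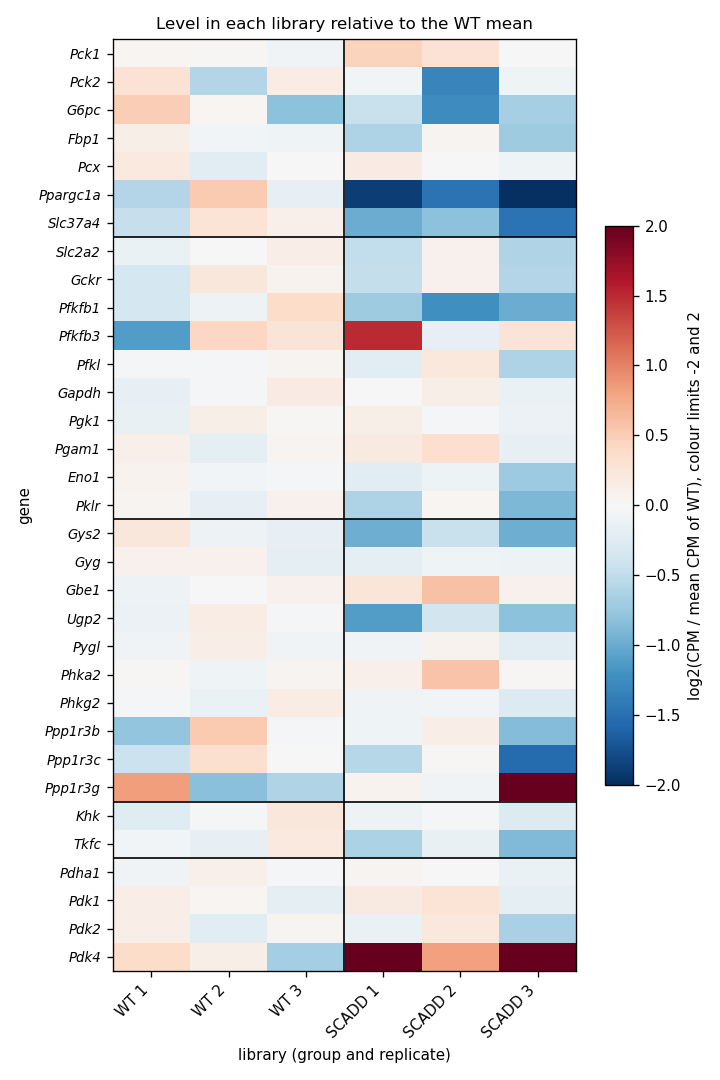
Colour shows log2 of CPM over the WT mean for the 33 genes (rows, black lines between roles) in each library (columns), with limits at -2 and 2. SCADD 2 is paler than SCADD 1 and SCADD 3 in rows such as Fbp1, Slc2a2, Pklr, Ugp2, Tkfc and Pdk4, while Ppargc1a and Slc37a4 are blue in all 3 SCADD libraries.

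Gluconeogenesis is strongest in periportal hepatocytes and glycolysis in pericentral ones. Of 10 periportal markers 2 fell, Cps1 to 0.512-fold and Sds to 0.515-fold, and 0 rose. An unadjusted p under 0.05 was found for 7 of the 10, 8 had a negative log2 fold change, the median was -0.64, and 5 (50%) lay wholly below WT in SCADD, beside 13.1% of all tested genes. Their summed level was 7127 to 8632 CPM in WT and 5086 to 6044 CPM in SCADD. Of 10 pericentral markers 9 were tested, and 2 rose and 1 fell. Among the tested ones 4 had an unadjusted p under 0.05, 6 had a positive and 3 a negative log2 fold change, and the median was 0.26. In SCADD 4 of the 10 (40%) lay wholly above WT, beside 14.9% of all tested genes, and 2 (20%) wholly below. The summed pericentral level was 1349.5 to 1522 CPM in WT and 1289 to 1469 CPM in SCADD. Of 6 markers of sinusoidal endothelium 1 fell, 3 had an unadjusted p under 0.05 and 3 lay wholly below WT (summed level 173 to 180.2 CPM in WT and 103 to 165 CPM in SCADD). Of 6 Kupffer cell and 6 stellate cell markers, all tested, 0 were called by edgeR, DESeq2 or limma-voom, with 1 each at an unadjusted p under 0.05. Only 3 of 6 biliary markers passed the filter on low counts, and 0 of them were called by these tools, 2 had an unadjusted p under 0.05, and all 3 were negative with a median of -0.76. The summed biliary level was 44.7 to 52.2 CPM in WT and 29.1 to 41.5 CPM in SCADD. A single marker each rose among the 2 lymphocyte markers tested of 6 and the 5 erythroid markers, while the 3 neutrophil markers tested of 5 and the 1 adipocyte marker tested of 5 gave 0 calls with any of these tools and 0 at an unadjusted p under 0.05. For periportal markers DESeq2 called 5 lower and limma-voom 2. The part of zonation or of other cell types in the fall of Ppargc1a, Slc37a4, Pfkfb1 and Gys2 was not tested.

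By level per transcript length (TPM, from the deposited RSEM tables), the 33 genes spanned from 557 ± 76.0 TPM for Fbp1 to 0.547 ± 0.238 TPM for Pck2 in WT (SD, n = 3 each). Fbp1, Pck1 (510.1 ± 49.7 TPM), Gapdh (490.5 ± 44.3 TPM) and Ugp2 (415 ± 34.2 TPM) led, and the first 3 were within about their own spread of each other. Gys2 (109.5 ± 27.2 TPM), Slc37a4 (90.2 ± 19.5 TPM) and Pfkfb1 (16.7 ± 3.00 TPM) stood in the upper and middle part of the order, and Ppargc1a (2.84 ± 1.52 TPM) near its foot. The order in WT was similar when unique STAR reads per kilobase of exon were used (Spearman rho = 0.950 over 33 genes, a description). TPM was not used to compare the groups, since it is a share of a library's total: SCADD replicate 3 was the lowest of all 6 libraries in 26 of the 33 genes by TPM and in 17 by TMM-scaled CPM.

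**Figure D4:**
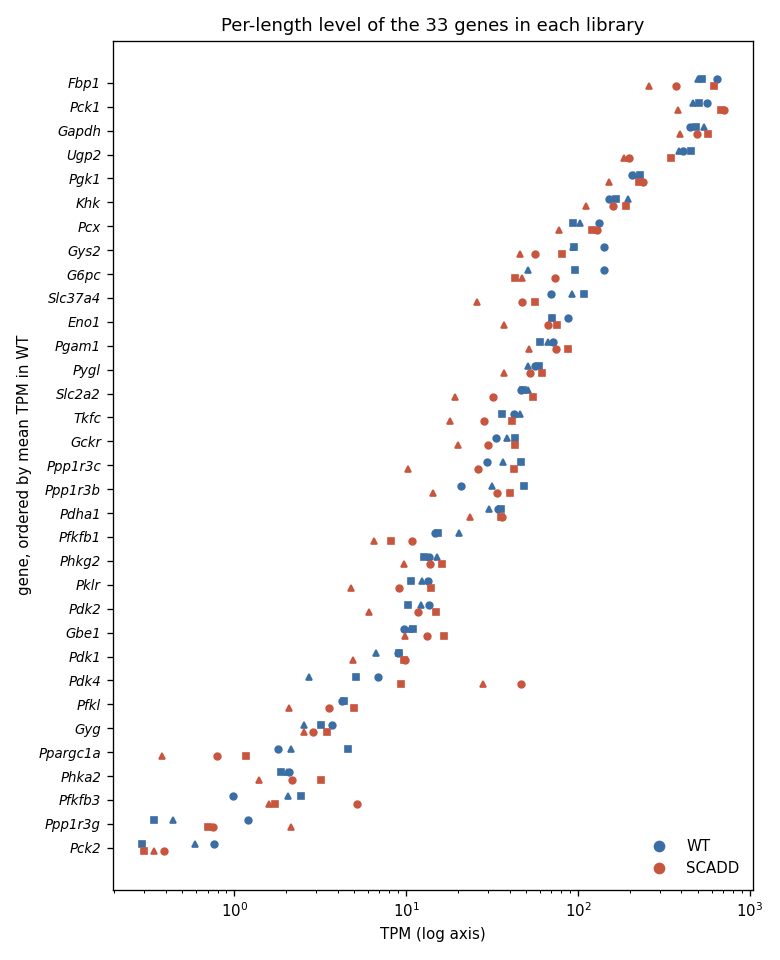
TPM on a log axis (x) for each library, with WT in blue and SCADD in red and marker shapes for replicates 1 (circle), 2 (square) and 3 (triangle), for the 33 genes ordered by their WT mean (y). Levels span from 0.547 TPM for Pck2 to 557 TPM for Fbp1, and the red triangles of SCADD replicate 3 sit leftmost in 26 rows.

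RSEM also reports a transcript length weighted by isoform abundance, so a shift in it marks a different mix of isoforms. It varied in 30 of the 33 genes, and in 4 of them the groups did not overlap. Longer lengths in every SCADD library were found for 5.83% of all tested genes with a varying length and shorter ones for 5.63%, so 2 longer and 2 shorter among the 33 is near the background. Pfkfb1 transcripts averaged 1760, 1749 and 1760 bases in WT and 1688, 1677 and 1727 bases in SCADD. Pfkfb3 averaged 4065 to 4475 bases in WT and 4629 to 4688 bases in SCADD. Pdha1 averaged 2813 to 2829 bases in WT and 2840 to 2848 bases in SCADD, and Tkfc 2244 to 2256 and 2218 to 2241 bases.

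In a wider list of 86 genes of the same pathways, of which 76 were tested, 2 rose and 4 fell, and 70 did not pass. Falls are 4.65% of the 86, a base that includes the untested genes, beside 2.80% of all tested genes. Of all tested genes 4.22% were called higher. The median log2 fold change of the tested genes of the list was 0.06. Pyruvate dehydrogenase phosphatases, which undo the action of the kinases, moved in both directions. Pdp1 had 3.51, 2.89 and 3.19 CPM in WT and 1.02, 1.04 and 1.36 CPM in SCADD (0.354-fold, edgeR adjusted p = 0.00415). It was the only gene of the wider list past the test for a change beyond 1.5-fold. Pdp2 had 16.6, 13.8 and 19.8 CPM in WT and 29.0, 30.1 and 26.0 CPM in SCADD (1.70-fold, adjusted p = 0.0137, lost without WT replicate 1 or 2 or SCADD replicate 1). Neither phosphatase gene overlapped between the groups.

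Among the 22 glycolytic genes of the wider list, 1 was called, Ldhb, a lactate dehydrogenase subunit of low level here. It fell to 0.446-fold, from a mean of 3.19 CPM in WT to 1.42 CPM in SCADD (edgeR adjusted p = 0.0147, lost without WT replicate 3). Akr1b3, the aldose reductase that opens the polyol route to fructose, fell to 0.451-fold (adjusted p = 0.00805). Pgls, 6-phosphogluconolactonase of the pentose phosphate pathway, fell to 0.701-fold (adjusted p = 0.0304, lost when any library other than SCADD replicate 3 was left out). In the glycogen list Gsk3b, a kinase that inhibits glycogen synthase, rose 1.49-fold (adjusted p = 0.0374, lost with upper-quartile scaling and when any library other than SCADD replicate 3 was left out). Of 20 genes of gluconeogenesis and its hormone signals 0 were called by edgeR, 3 higher by DESeq2 and 1 higher by limma-voom. An unadjusted p under 0.05 was found for 4, and the 2 with the smallest p were Gpt2, an alanine aminotransferase (1.52-fold, adjusted p = 0.0513), and Sik1, a kinase of the cAMP pathway (2.04-fold, adjusted p = 0.0708).

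The places of the 4 fallen genes differed in what lay around them. Within 1 Mb of Gys2, 5 of 15 other tested genes were called (33.3%), beside 7.02% of all tested genes. Within 1 Mb, 0 of 37 were called around Slc37a4, 0 of 4 around Ppargc1a, and 1 of 10 around Pfkfb1, the erythroid heme synthesis gene Alas2, which rose. Ldhb, 17.1 kb from Gys2, fell along with it at a low level, to 1.42 ± 0.13 CPM from 3.19 ± 0.61 CPM. The organic anion transporter Slco1a4, 566 kb from Gys2, fell to 58.0 ± 21 CPM from 148 ± 20.5 CPM (edgeR adjusted p = 0.00738, SD over 3 animals each). Cmas, which activates sialic acid, rose from 37.2 ± 1.74 to 54.5 ± 4.74 CPM (adjusted p = 0.0246). Etnk1, an ethanolamine kinase, rose from 26.2 ± 2.05 to 50.4 ± 2.36 CPM (adjusted p = 0.00165). The predicted gene Gm6614 rose at a low level, from 0.608 ± 0.317 to 1.94 ± 0.697 CPM (adjusted p = 0.0366). Over 16 alternative settings Gm6614 was called in 10, Cmas and Gys2 in 11 each, Ldhb in 14, and Slco1a4 and Etnk1 in 15 each. These neighbours were singled out after their values were seen, and sequence variants between the substrains in this interval were not analysed here.

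**Figure D5:**
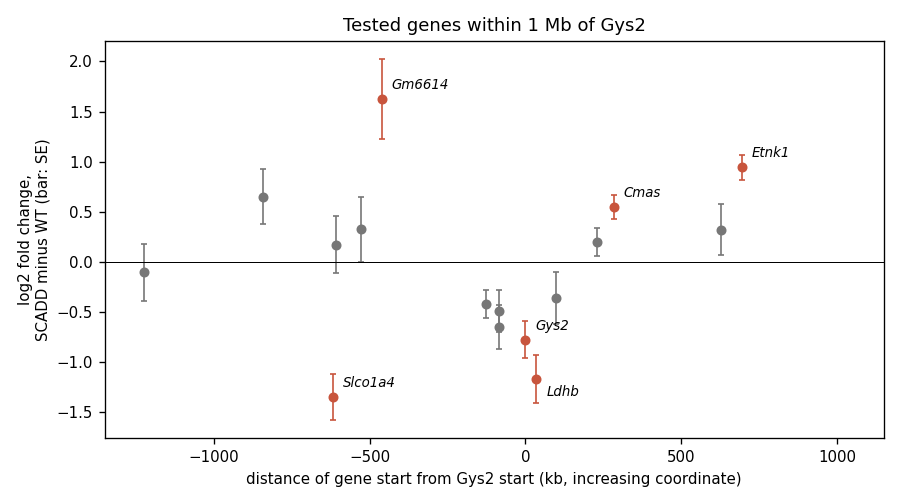
Log2 fold change of SCADD against WT (y axis, bars are SE) of the 16 tested genes reaching within 1 Mb of Gys2, at the distance of their start from the Gys2 start in kb (x axis), with called genes in red and named. Gys2 and Ldhb lie side by side below zero, and Cmas, Etnk1 and Gm6614 lie above it.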

How the data were processed

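Poly(A) RNA libraries from 6 livers (3 WT, 3 SCADD) were measured. The submitters' processing notes name STAR 2.7.6a, RSEM 1.3.3 and the build GRCm38. For the annotation, the release is not given in the sources used here. The authors deposited whole-number STAR read counts per gene (unstranded and per strand) and RSEM tables. The deposited RSEM tables hold expected counts, TPM, and FPKM, which was not used, as computed by the authors. Column 4, with 96.8% to 97.3% of stranded reads, was used, and its 4 summary rows stayed out of library sizes. Of reads, 10.1% to 13.1% were multi-mapped and 1.47% to 2.17% lay in no gene. Of 55487 gene IDs 55227 matched GENCODE M21, which gave symbols, coordinates and exonic lengths.

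Genes passing edgeR's filterByExpr (minimum count 10) were TMM-scaled and tested with edgeR 4.0.16 in R 4.3.3 (robust glmQLFit, glmQLFTest, group only, prior count 0.125). SE is the log2 fold change over the square root of F, and 95% intervals are built from it, both approximations. P-values measure the spread between animals. Replicate pairs differed by 32.8 to 121 times sampling noise (chi-square per degree of freedom). On simulated counts for SCADD against WT (13300 genes tested), the share of changes recovered was 7.69% at 1.5-fold, 58.5% at 2-fold and 98.5% at 4-fold, with 11 false among 119 calls. The members and lists were chosen with earlier results of these data known, so their shares beside those of all genes are descriptions. Every one of the 33 genes may be named. Values in each library are given for genes past the threshold, those with an absolute log2 fold change of at least 0.8 and 9 lead genes. Of each wider list up to 4 called genes with the smallest p are named, or 2 where none was called. Of the marker lists, counts and summed levels are given. Alternatives were RLE or upper-quartile scaling, 2 other filters, DESeq2 1.42.0, limma-voom (limma 3.58.1), RSEM counts rounded to whole numbers, the unstranded column, a replicate block, a 1.5-fold test and leaving out each library.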

Additional observations from a re-analysis of the deposited data

How the results depend on the processing

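Over 16 alternatives, 486 values of the 33 genes kept their direction and their side of the threshold, 14 newly passed, 12 no longer passed and 16 changed sign, all 16 in genes that passed under none of these settings. The cause of these changes was not tested. Leaving out a library also leaves fewer animals in a group. Calls over all genes went from 947 to 1590 without SCADD replicate 3 and to 395 without WT replicate 2. The number of called genes, 947, was 1702 without a filter, 224 for a change beyond 1.5-fold and 395 to 1590 with 1 library left out. Of the 33 genes, 0 were higher, against 1 with DESeq2, 1 with limma-voom and 0 to 1 with a library left out. The 4 lower genes were 7 without a filter, 1 beyond 1.5-fold and 1 to 8 with a library left out. By role, the change beyond 1.5-fold left 1 lower gene of gluconeogenesis (1 to 3 with a library left out), 0 of glycolysis and glucose transport (0 to 2) and 0 of glycogen metabolism (0 to 2). In glycogen metabolism 2 were lower with upper-quartile scaling, no filter, DESeq2, limma-voom and the replicate block, in fructose metabolism 1 was lower without a filter (0 to 1 with a library left out), and in pyruvate dehydrogenase control 1 was higher with DESeq2 and 1 with limma-voom (0 to 1). Of the wider list, the 2 higher genes were 1 with upper-quartile scaling, 8 without a filter, 5 with DESeq2, 6 with the replicate block, 0 beyond 1.5-fold and 0 to 7 with a library left out. The 4 lower ones were 1 beyond 1.5-fold and 2 to 7 with a library left out. Some log2 fold changes near zero changed sign. For Pcx the value was -0.0202 with upper-quartile scaling and -0.0698 to 0.1242 with a library left out, and for Gapdh 0.0055 with RSEM counts and -0.0932 to 0.0868. With a library left out the range was -0.3997 to 0.0172 for Pfkl, -0.0929 to 0.0503 for Pgk1, -0.5012 to 0.1394 for Ppp1r3b, -0.012 to 1.7665 for Ppp1r3g, -0.08 to 0.0313 for Pdha1 and -0.3704 to 0.0453 for Pdk2. The labels give only replicate numbers and name no pairing between the groups. Deviations from the group mean correlated at 0.0606, 0.0372 and 0.107 for same-numbered libraries. For differently numbered ones they correlated at -0.127 to 0.0612, and WT replicate 2 correlated best with SCADD replicate 1. These small values do not settle whether same-numbered libraries were paired. With the replicate block 1148 genes were called in place of 947, and Ugp2 joined the lower genes. With 3 animals a group, the simulated test found few 1.5-fold changes. It made 119 calls against 947 in the data, so its adjusted threshold was stricter. Its recovered share may therefore understate that in the data.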
